A study of Mus musculus with 2 samples.

Results

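5-Hydroxymethylcytosine (5-hmC) was described at 4 genomic regions assigned to Socs1, Il4ra, Nfatc1 or Tcf3, which are genes of cytokine signalling and of gene regulation in lymphoid cells. These are the regions of a deposited list of 364 whose gene list holds exactly 1 of the 4 gene names, and each gene had 1 region. The list came from epidermis of C57BL/6J mice, 6 weeks old, which the table calls WT. One library came from mice given 3.125 mg of imiquimod a day as a 5% cream for 6 days, on shaved back skin and the right ear. The labels also give a mass of cream, 62.5 μg, that is too small to hold this dose, and which of these values is right is not known. The other library came from mice given Vaseline, the vehicle, in the same way. Imiquimod activates Toll-like receptor 7, and its repeated use on mouse skin gives a psoriasis-like inflammation. Both libraries were made by hMeDIP-seq, in which DNA fragments that carry 5-hmC are captured with an antibody and sequenced. With 1 library per treatment there is no replicate spread and no test between treatments. How many mice were used for a library is not stated in the labels, and the Vaseline and imiquimod columns were matched by the words control and treated in their names, on which every direction rests.

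TET enzymes make 5-hmC by oxidising 5-methylcytosine, mostly at CpG dinucleotides, and the mark is commonly found in gene bodies and at enhancers. Cytokine receptors such as the interleukin 4 receptor signal through JAK kinases and STAT factors, and SOCS proteins, whose genes STATs induce, bind the receptor and JAK complex and shut it down. NFAT factors enter the nucleus after the phosphatase calcineurin removes their phosphates, a route best known from T cell activation. E proteins bind E-box sequences as dimers, direct early B and T cell development and are held in check by Id proteins. In skin, Nfatc1 is also known for keeping hair follicle stem cells quiescent, and interleukin 4 receptor signalling in keratinocytes is known from atopic dermatitis.

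All 4 regions carried less 5-hmC in the imiquimod library. The average tag pileup, the mean number of overlapping sequenced fragments along a region, was 3.05-fold lower at the Socs1 region, 2.68-fold lower at the Tcf3 region, 2.32-fold lower at the Il4ra region and 2.28-fold lower at the Nfatc1 region. The list had been selected by its authors for large tag numbers and differences between these same libraries, so the differences helped to choose the regions and are given here as a description. A 2-fold or greater decrease was present in all 4 regions and in 270 of the 364 listed regions (74.2%). This count mostly restates direction, since every listed region differed by about 2-fold or more, 271 lower and 93 higher with imiquimod. No region just outside the selection is listed. The smallest values inside it were 49.5 tags in the higher library, against 50.6 at the Nfatc1 region, and a 1.9998-fold difference. In whole epidermis, a smaller share of cells with the mark and less of the mark per cell cannot be told apart.

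The reference sequence places the Socs1-assigned region over another gene. It spans chromosome 16 from 10790459 to 10790987 in the mm10 build, and the single exon of Prm3, a protamine gene of the male germ line, lies inside it. That exon fills 410 of its 528 bp (77.7%), and the Prm3 coding sequence fills 303 bp (57.4%). The stretch below is shown because its bases lie within the region that was measured. It runs on the minus strand over chr16:10790688-10790987, with each CpG in capitals. It holds 73 bases before the Prm3 transcript, the 25 untranslated bases that precede the coding sequence and 202 coding bases.
Prm3 stretch of the Socs1 region: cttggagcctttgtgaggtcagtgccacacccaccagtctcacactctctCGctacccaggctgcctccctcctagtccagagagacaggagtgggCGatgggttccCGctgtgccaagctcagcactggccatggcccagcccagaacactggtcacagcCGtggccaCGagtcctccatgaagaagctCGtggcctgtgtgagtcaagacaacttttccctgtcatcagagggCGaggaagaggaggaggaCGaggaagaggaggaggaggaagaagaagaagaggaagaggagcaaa
The stretch joins the RefSeq promoter window of Prm3 (GRCm38.p6) with the GENCODE M21 transcript, which had the same 50 bases where they overlap. It holds 8 CpG dinucleotides in 300 bases. The 483 bases of the region that these sources hold together (91.5%) contain 14 CpG dinucleotides and have a GC content of 59.2%, and the deposited table marks no CpG island there.

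The starts of Socs1, Il4ra and Tcf3 lay outside the measured regions, although the deposited table counts a promoter at each of these regions. The bases directly before the outermost annotated starts are shown for that reason, from the same RefSeq windows, with CpG in capitals. They cover chr16:10785537-10785786 on the minus strand, chr7:125552021-125552119 on the plus strand and chr10:80433648-80433885 on the minus strand.
Socs1 upstream: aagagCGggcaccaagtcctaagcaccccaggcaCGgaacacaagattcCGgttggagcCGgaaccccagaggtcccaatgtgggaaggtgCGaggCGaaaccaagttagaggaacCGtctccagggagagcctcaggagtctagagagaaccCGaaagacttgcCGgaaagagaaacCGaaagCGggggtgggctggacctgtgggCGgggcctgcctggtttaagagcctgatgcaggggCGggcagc
Il4ra upstream: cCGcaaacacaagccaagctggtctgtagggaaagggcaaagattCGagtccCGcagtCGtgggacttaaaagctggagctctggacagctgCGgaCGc
Tcf3 upstream: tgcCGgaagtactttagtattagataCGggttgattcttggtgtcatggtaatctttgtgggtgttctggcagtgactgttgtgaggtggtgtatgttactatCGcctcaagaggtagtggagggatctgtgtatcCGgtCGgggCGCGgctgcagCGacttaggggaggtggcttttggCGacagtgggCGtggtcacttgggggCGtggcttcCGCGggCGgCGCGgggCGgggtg
These stretches lay 4673 bp, 2125 bp and 4457 bp from the nearest edge of the measured region. The full promoter windows of 300 bases held 18 CpG dinucleotides for Socs1 and 25 each for Il4ra and Tcf3, against a median of 7 over 32817 RefSeq promoter windows. The STAT motif TTCNNNGAA, the only STAT form searched, was in neither the Prm3 stretch nor the 3 promoter windows. Of all windows, 8.29% held it on either strand. The NFAT core GGAAA was found in the Prm3 stretch (1 match), the Socs1 window (1) and the Il4ra window (2), and in 61.3% of all windows. The E-box CANNTG had 1 match each in the Il4ra and Tcf3 windows and was in 72.3% of all windows. These matches describe letters in the windows. No matches of different motifs overlapped in these windows. No sequence of the Il4ra, Nfatc1 and Tcf3 regions themselves was used here.

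**Figure D1:**
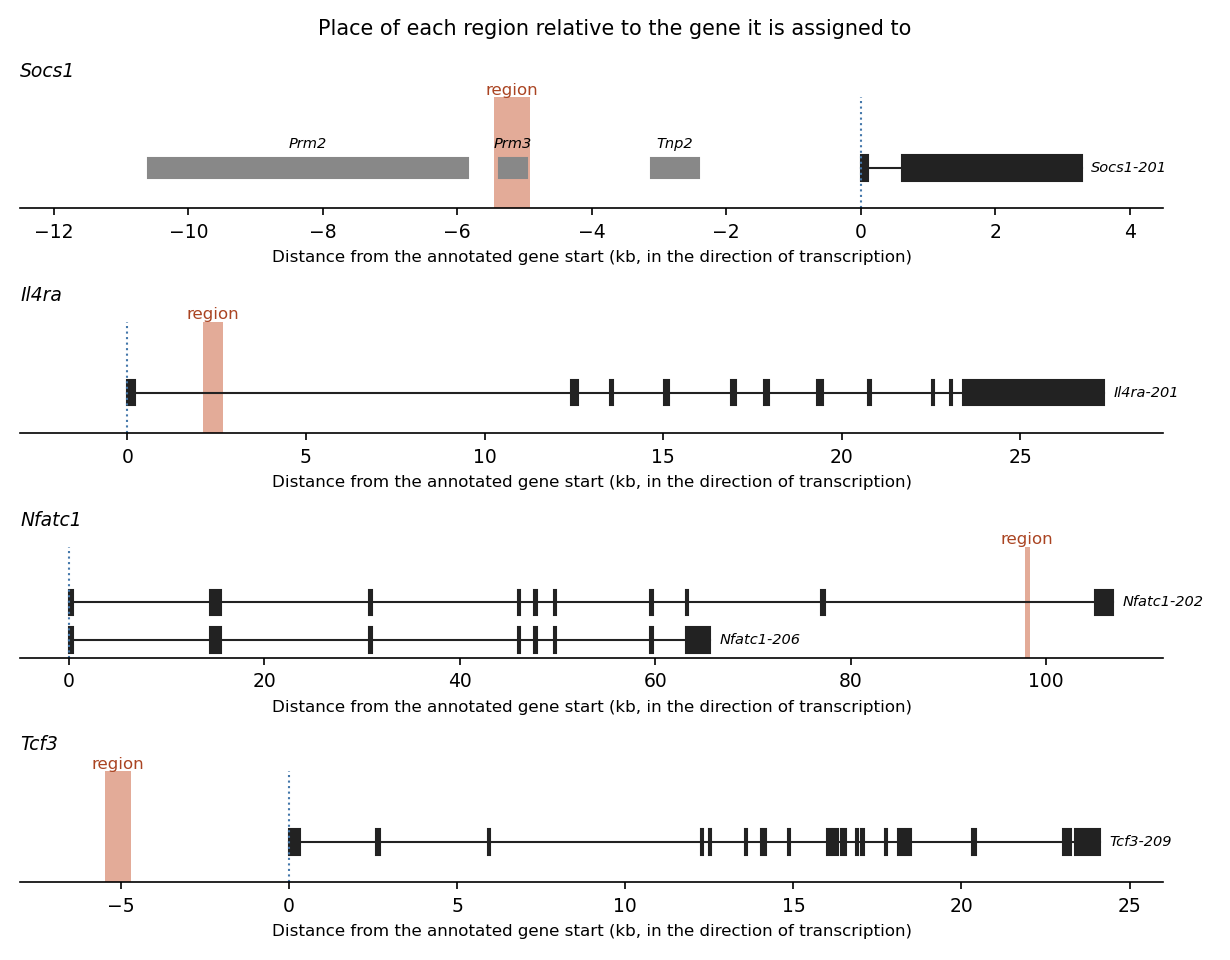
Place of each measured region (orange) along the gene it is assigned to, as distance in kb from the annotated gene start (dotted line) in the direction of transcription; black boxes are exons and, for Socs1, grey boxes are neighbouring genes. The Socs1 region covers Prm3, the Il4ra region lies in intron 1, the Nfatc1 region lies in intron 9 of the long transcripts, and the Tcf3 region lies before the gene.

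Socs1 encodes an inhibitor of cytokine signalling, and by average pileup its region had the greatest decrease of the 4. Its average pileup was 22.1 with Vaseline and 7.24 with imiquimod. The highest pileup of any window was 34 and 12, a 2.83-fold decrease. These averages correspond to 52.0 tags (exact 95% counting interval 38.8 to 68.2) and 17.1 tags (9.90 to 27.2). The counting intervals of the 2 libraries do not overlap, here and at the Il4ra, Nfatc1 and Tcf3 regions. Regions were listed for large tag numbers and differences, so this separation largely follows from the selection and is no separate support. The ratio was 3.05-fold lower, with an exact 95% interval of 1.74 to 5.64 that covers counting error only. Only 7 of the 364 listed regions (1.92%) were lower by 3-fold or more, and the Socs1 region was number 7 in that order. Its neighbours in the order were a region inside Tbcel, a tubulin-binding gene, at 3.11-fold and a region upstream of Col6a1, a collagen gene, at 2.97-fold.

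The link of this region to Socs1 rests on distance. The middle of the region lay 5187 bp before the Socs1 start, and its nearest edge 4923 bp before it. The deposited table names 5 genes at the region, a number that only 3 of the 364 regions have, and 4 promoters, which no other listed region has. It places the region 191 bp inside Prm3, 2068 bp upstream of Tnp2, 1374 bp downstream from the start of Prm2 and 6100 bp downstream from that of Prm1. Tnp2 encodes a transition protein and Prm1 and Prm2 encode protamines, which replace histones in maturing sperm. By the deposited distances, the starts of Prm3, Prm2 and Tnp2 are closer to the region than the start of Socs1. GENCODE M21 gives Prm2 an earlier start, 5411 bp from the middle of the region, which makes Socs1 the third closest. The nearest other listed region on chromosome 16 lay 7830.4 kb away, at Gp1bb and Sept5, with 584 numbered regions between them that are not listed.

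Il4ra encodes the receptor chain that interleukins 4 and 13 share, and its region lay in the first intron. The region spans chromosome 7 from 125554244 to 125554804 and is 560 bp long. The deposited distance to the start is 2242 bp, and the GENCODE start is 2404 bp from the middle of the region. Intron 1 of Il4ra-201 is 12223 bp long, and the region begins 1915 bp after exon 1 and ends 9747 bp before exon 2. The coding sequence begins 13535 bp from the gene start, so the region lies before the first coding exon. No exon of Il4ra is overlapped, and Il4ra is the only gene the table names there. The gene of another cytokine receptor, Il21r, begins 48625 bp beyond the region and had no listed region.

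The Il4ra region had an average pileup of 21.4 with Vaseline and 9.24 with imiquimod. The highest pileup was 30 and 14. The estimated tags were 53.5 (40.6 to 70.5) and 23.1 (14.6 to 34.5). The average was 2.32-fold lower (1.42 to 4.01). By highest pileup the decrease was 2.14-fold, the smallest of the 4 regions on that measure. The region was number 80 of 271 lower regions by average. Its neighbours in that order were at Scfd2 (2.33-fold) and downstream of Mrto4 and upstream of Emc1 (2.31-fold). The nearest listed region on the chromosome, inside Fbxl19, lay 2199.8 kb away.

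Nfatc1 encodes a calcium-regulated NFAT transcription factor, and its region lay near the far end of the gene. It spans chromosome 18 from 80614737 to 80615263, 98071 bp from the start and 8795 bp from the annotated end, at 91.8% of the length of the gene. The annotation gives 6 protein-coding transcripts. The 4 long ones, with 10 exons each, hold the region in intron 9, 6711 bp before the last exon. The 2 short ones, with 8 exons, end 32172 bp before the region. The measured stretch is therefore inside Nfatc1 for the long transcripts alone. No Nfatc1 exon overlaps the region, the deposited table counts no promoter there, and Nfatc1 is the only gene it names.

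At the Nfatc1 region the average pileup was 21.6 with Vaseline and 9.44 with imiquimod. The highest pileup was 35 and 14. The estimated tags were 50.6 (38.0 to 67.1) and 22.2 (13.8 to 33.3). The average was 2.28-fold lower (1.38 to 4.01) and the highest pileup 2.50-fold lower. The region was number 88 of 271 lower regions by average and number 68 by highest pileup. Its neighbours in the order of averages were at Ankrd46 (2.29-fold) and at Mmel1 and Fam213b (2.28-fold). The nearest listed region, 406.5 kb away and assigned to no gene, went the other way, with averages of 11.1 under Vaseline and 23.6 under imiquimod. On chromosome 18, 3 of 10 listed regions were lower.

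Tcf3 encodes the E proteins E12 and E47, together called E2A, which are needed for B cell development. Tcf7l1, a Wnt effector known in skin stem cells, is a different gene that has also gone by the name TCF3. The region spans chromosome 10 from 80438342 to 80439122 and, at 780 bp, is the longest of the 4. The deposited distance is 5079 bp upstream, and the nearest edge lies 4695 bp from the GENCODE start. None of the 8 protein-coding genes with the closest starts overlaps it. The next protein-coding gene start by distance was that of Uqcr11, 31902 bp away, so Tcf3 has the closest start. Of the 364 listed regions, 22 (6.04%) lay upstream of a gene and inside none, and 12 of these were 5000 bp or more from the closest start they lie upstream of.

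The Tcf3 region had the lowest level of the 4 in both libraries. Its average pileup was 15.5 with Vaseline and 5.79 with imiquimod. The highest pileup was 26 and 9. The estimated tags, 54.1 (40.6 to 70.5) and 20.2 (12.2 to 30.9), were close to those of the other regions because this region is longer. The average was 2.68-fold lower (1.59 to 4.76) and the highest pileup 2.89-fold lower, the greatest of the 4 on that measure. In the imiquimod library its average was the fifth lowest of the 271 lower regions, and in the Vaseline library it was number 240 from the top. It was number 19 in the order of decrease, between regions of Usp2, a deubiquitinase gene (2.70-fold), and of 3110082I17Rik and Gpr146 (2.68-fold).

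**Figure D2:**
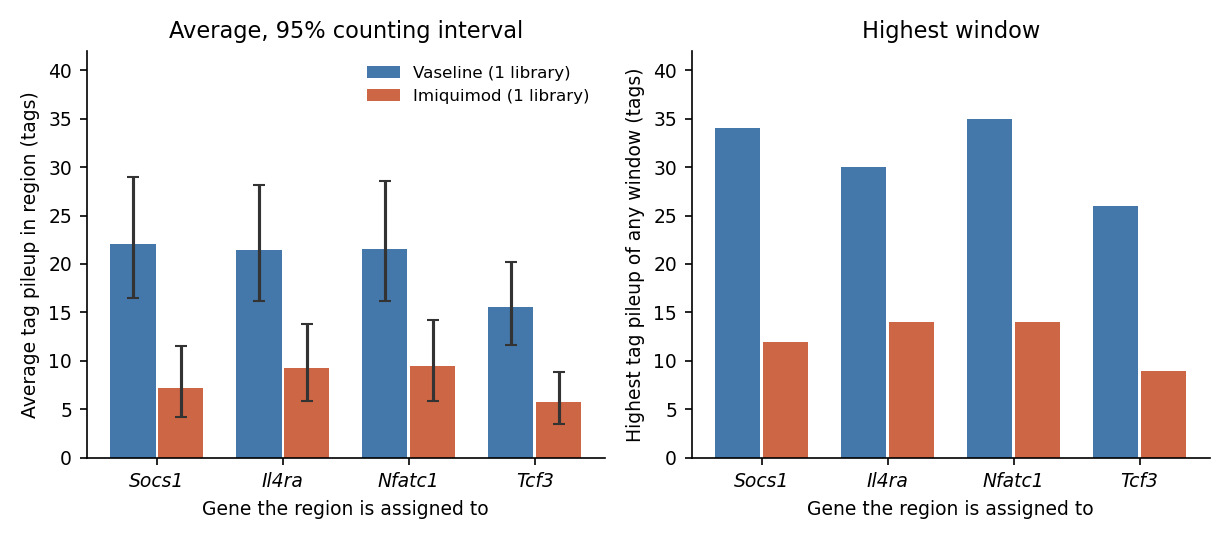
Average tag pileup (left, with exact 95% counting intervals as bars) and highest tag pileup of any window (right) at each region, in the Vaseline library (blue) and the imiquimod library (orange), 1 library each. Vaseline averages run from 15.5 to 22.1 and imiquimod averages from 5.79 to 9.44, with the Tcf3 region lowest in both.

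Set side by side, the 4 regions held 50.6 to 54.1 tags with Vaseline, all just above the selection limit, and 17.1 to 23.1 with imiquimod. The order of Vaseline averages was Socs1, Nfatc1, Il4ra and Tcf3, from 22.1 to 15.5. In the imiquimod library it was Nfatc1, Il4ra, Socs1 and Tcf3, from 9.44 to 5.79. Socs1 thus moved from the first to the third place, while the other 3 kept their order among themselves. The counting intervals overlapped in all 6 pairs of regions, for the Vaseline level, for the imiquimod level and for the ratio, so no neighbours in either order are separated by this depth. Pairs were compared by overlap of intervals, not by a test. By average pileup a decrease of 2.5-fold or more was present at Socs1 and Tcf3, and in 46 of the 364 listed regions (12.6%).

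The medians of the 4 regions are set here beside those of all 271 lower regions, which include them. The median Vaseline average was 21.5 over the 4 and 19.3 over the 271, whose upper quartile was 21.4. The median imiquimod average was 8.24 and 8.63. The median decrease was 2.50-fold over the 4 and 2.18-fold over the 271, whose upper quartile was 2.38-fold. Socs1 (3.05-fold) and Tcf3 (2.68-fold) lay above that quartile, and Il4ra (2.32-fold) and Nfatc1 (2.28-fold) below it. The 4 were chosen with earlier results of these data known, so these medians are a description. The regions were short: 3 of them, from 526 to 560 bp, fell below the lower quartile of 607.5 bp over the lower regions. The pileup was similarly peaked in both libraries, with the highest window 1.40 to 1.67 times the average in Vaseline and 1.48 to 1.66 times in imiquimod epidermis. The median of this ratio over all lower regions was 1.63 in Vaseline and 1.66 in imiquimod epidermis.

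**Figure D3:**
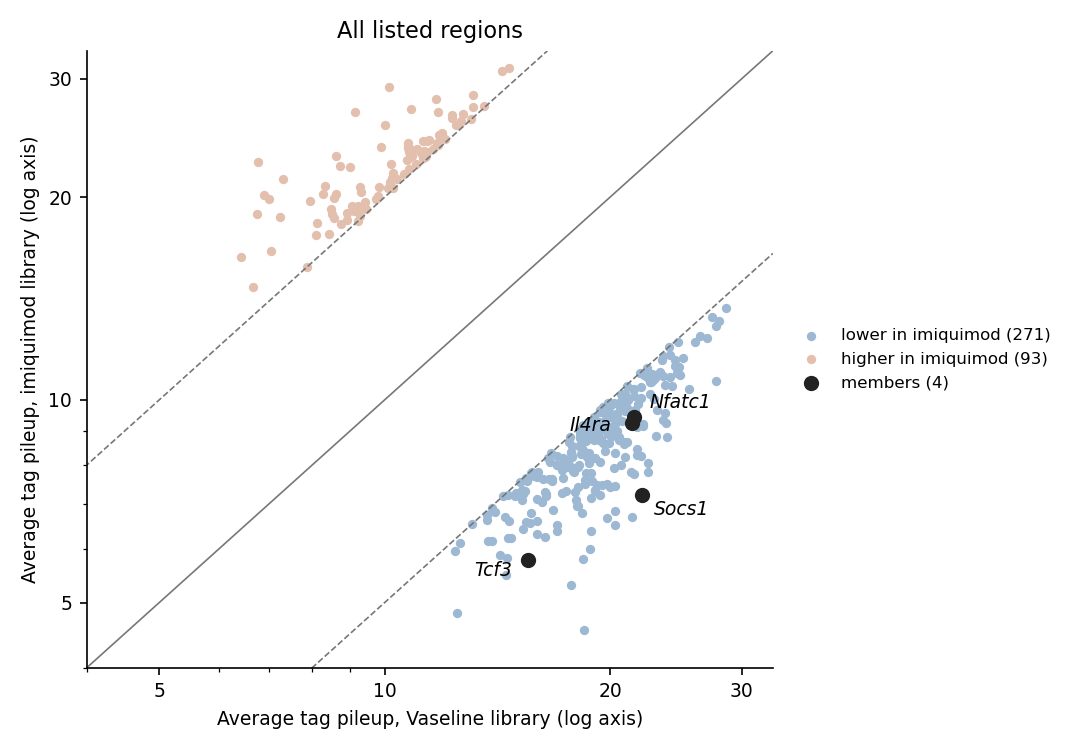
Average tag pileup of all 364 listed regions in the Vaseline library (horizontal, log axis) and the imiquimod library (vertical, log axis), with the solid line at equal values and the dashed lines at a 2-fold difference. The 4 members (black) lie among the 271 lower regions, Il4ra and Nfatc1 near the 2-fold line and Socs1 and Tcf3 farther below it.

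The other measures of the same reads went the same way and are not separate support. The highest pileup was lower by 2-fold or more in all 4 regions, as in 201 of the 364 listed regions (55.2%). The authors' calls gave an enriched interval with Vaseline and none with imiquimod in all 4 regions, as in 253 of the 364 (69.5%). No CpG island was marked at any of the 4, and 28 of the 364 listed regions had one.

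How the authors scaled one library to the other is not stated in the labels, and the scaling sets these sizes. Raising every imiquimod value by a factor of 1.14 would bring the Nfatc1 region to 2-fold, 1.16 the Il4ra region, 1.34 the Tcf3 region and 1.52 the Socs1 region. With the averages made equal in sum over the listed regions, a factor of 1.40, the decrease was 2.17-fold at Socs1, 1.91-fold at Tcf3, 1.65-fold at Il4ra and 1.63-fold at Nfatc1. The count at 2-fold was then 1 of 4, beside 11 of 364 listed regions (3.02%). The factor of 1.40 was taken from selected regions, 271 lower and 93 higher, so it does not estimate how the libraries were scaled.

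**Figure D4:**
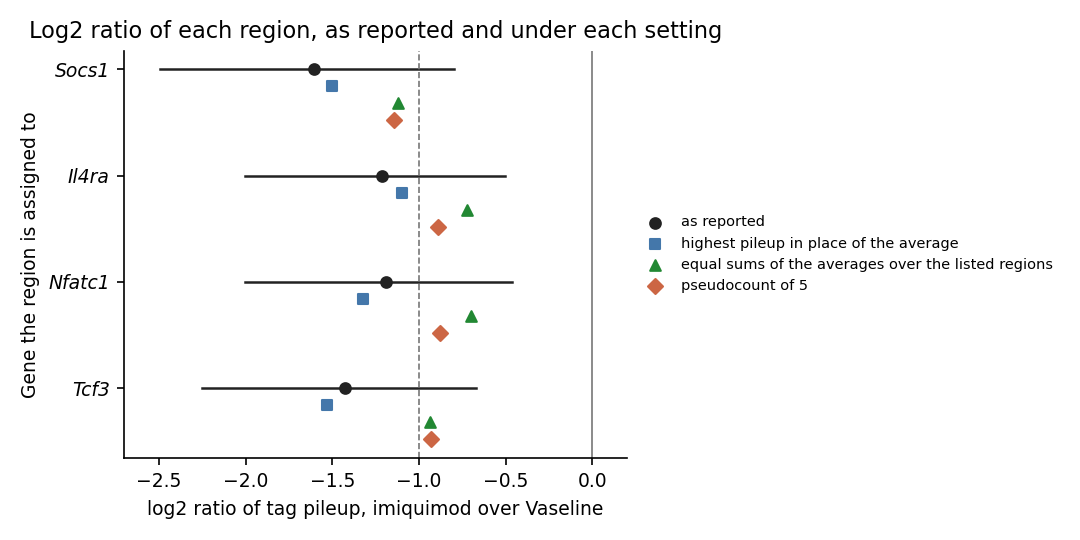
Log2 ratio of tag pileup, imiquimod over Vaseline, at each region as reported (circle, with its exact 95% counting interval) and with the highest pileup, equal sums or a pseudocount of 5 (other symbols); the dashed line marks a 2-fold decrease. All values are below 0, and with equal sums Socs1 alone stays past the dashed line.

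Lists of genes of these pathways were looked up in the gene lists of the 364 regions. The list of 30 JAK kinases, STAT factors and their inhibitors held Socs1 alone, and the list of 36 cytokine receptors and type 2 cytokines coupled to JAK kinases held Il4ra alone. Of 34 E proteins, Id proteins and lymphoid transcription factors, Tcf3 was the only one. Of 20 calcineurin and NFAT genes, Nfatc1 and Rcan1 had a lower region. None of these genes had a higher region. Apart from the members, around which the lists were made, 1 of 116 genes (0.862%) had a lower region, beside 288 of 21900 protein-coding RefSeq genes (1.32%).

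Rcan1, which encodes an inhibitor of calcineurin and is itself an NFAT target, carried 2 lower regions, both inside the gene and outside its annotated exons. The region 16256 bp from its start (chromosome 16, 92449554 to 92450227) had averages of 18.1 with Vaseline and 6.95 with imiquimod, a 2.60-fold decrease (1.53 to 4.48). The region 33845 bp from its start (chromosome 16, 92431708 to 92432894) had averages of 12.4 and 5.97, 2.08-fold lower (1.33 to 3.25). They lay 16660 bp apart. The highest pileups were 28 and 10 at the first and 23 and 11 at the second.

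Markers of immune cells, some of which epidermal sheets also hold, were looked up in the same list. None of 15 T cell markers, 10 B cell markers and 13 markers of myeloid, Langerhans and mast cells had a listed region in either direction, while 339 of the 21900 protein-coding genes (1.55%) had one, so a count of 0 of 38 says little. A list of selected 5-hmC regions does not give the levels of such markers, and neither the cell makeup nor the identity of the tissue was tested.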

How the data were processed

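Epidermis was separated from punch biopsies with 0.2% dispase before DNA extraction and 5-hmC immunoprecipitation, per the labels' protocols. CASAVA, MACS2 and mm10 are named, without versions, in the submitters' processing notes. The aligner, fragment extension, duplicate handling and scaling are stated in neither. The authors merged called intervals of 4 libraries into regions, per the file headers. Of these, 2 libraries (6 columns) match no sample here and were left out. Deposited coverage signals are the average and the highest tag pileup per region. The deposited log2 ratio is that of the averages. The authors' deposited tag score equals the larger average times region length over 224 in 364 regions (tolerance 0.05), so tags of each library were computed in this way. Total depth is unknown.

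Ratios are imiquimod over Vaseline. Their intervals are Clopper-Pearson intervals, and those of tags are exact Poisson intervals, at 95%. They cover counting error only. The tags are derived from averages whose scaling is not stated, and were rounded to whole numbers for the intervals. Scaling, or reads that are copies of 1 molecule, would make the stated widths wrong. With 1 library per treatment no test was made. Starts in the deposited coordinates may count from 0. Annotation is GENCODE M21 basic (GRCm38, the assembly mm10 names). Sequences are from RefSeq promoter windows and GENCODE transcripts. The motif search in all listed regions that had been planned was not made, since a genome sequence was not used here. Members, lists and named genes (the members, their neighbours in the gene lists, on the chromosome and in the order of ratios, and list genes with a region) were chosen with earlier results of these data known. Python 3.11.15, numpy 2.4.6, pandas 2.3.3, SciPy 1.17.1 and matplotlib 3.10.9 were used, and the interval code was tested on simulated tag numbers.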

Additional observations from a re-analysis of the deposited data

How the results depend on the processing

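All 12 log2 ratios recomputed for the 4 regions, with the highest pileup, equal sums of the averages or a pseudocount of 5, stayed below 0 and inside the counting interval of the reported value. They ran from -1.53 to -1.10 with the highest pileup, from -1.12 to -0.70 with equal sums and from -1.15 to -0.88 with the pseudocount. At ratios of this size the sign is fixed by construction under equal sums and under a pseudocount, which therefore show nothing about stability. Of the 4 regions lower by 2-fold, 1 remained with equal sums, 1 with the pseudocount and 1 at a minimum of 3-fold, in each case Socs1, and 0 had 100 tags. Counting only regions inside the member gene left 2, and only regions with no other gene left 3. Of the 5 genes of the pathway lists with a lower region, 1 was left at 3-fold and 1 with equal sums, settings chosen after seeing the data. With 1 library per treatment, leaving out a replicate was not possible. No paired analysis was possible because each treatment has 1 library. At about 50 tags a log2 ratio carried a median counting error of 0.78 to each side.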
